A study of Homo sapiens with 8 samples.

Results

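The regions described here are stretches of H3K27ac that were called in every library and whose called length at least doubled with both siRNAs against CEBPB. H3K27ac peaks of 4 libraries, on chromosomes 1 to 22 and X, were merged on any overlap of at least 1 bp. The regions were chosen by their called length, that is, by the start and end of the peaks in each list. A region entered the group if it had a peak in all 4 lists and 1000 bp or more of called length with each siRNA. In addition, the siRNA giving the shorter call had to reach at least 2 times the called length of the longer control. This held for 597 of 60669 merged regions, or 597 of the 24133 with a peak in all 4 lists, called shared regions below.

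The cells were A549, an established human lung adenocarcinoma line with constitutive activity of NRF2, the regulator of antioxidant genes. All cells were transfected: control 1 and control 2 received a control siRNA, and the remaining libraries received CEBPB siRNA-1 or CEBPB siRNA-2, named siRNA-1 and siRNA-2 here. Chromatin was taken 48 h after transfection. Each siRNA is represented by 1 library, and the labels do not say whether the controls were separate cultures, and any spread between the controls may be technical. How far CEBPB itself was lowered is not measured by these libraries.

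H3K27ac is an acetyl group on a lysine of histone H3 that marks active promoters and enhancers. It is written by the acetyltransferases p300 and CBP, which transcription factors recruit to DNA, and it spreads over the nucleosomes on either side of the bound site. CEBPB (C/EBP beta) is a basic leucine zipper factor that binds as a dimer, is active in inflammation and differentiation, and can activate or repress its targets depending on isoform and partner. A longer called stretch means that more neighbouring bases passed the threshold of the peak caller. The lists cannot tell acetylation of more nucleosomes from more signal at the same ones.

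Doubling with both siRNAs was seen far more often than doubling in a pair of libraries that mixed the treatments. The 597 regions are 2.47% of shared regions. The opposite rule, both controls at least 2 times both knockdown libraries, held for 493 regions (2.04%). With the lists cut to equal called length the counts were 447 and 251. This cut removed the weakest peaks of each list down to the length of the shortest list, siRNA-2. It thus took nothing from siRNA-2 and the most from siRNA-1, which can itself shift the counts apart. Mixed pairs gave 34 regions (0.141%) for control 1 with siRNA-1, 6 (0.0249%) for control 1 with siRNA-2, and 2 (0.00829%) for each of the remaining pairings. The rule itself uses this contrast, so these counts describe the libraries and were not tested; with 2 libraries per treatment, no exact permutation p can fall below 0.333.

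**Figure D1:**
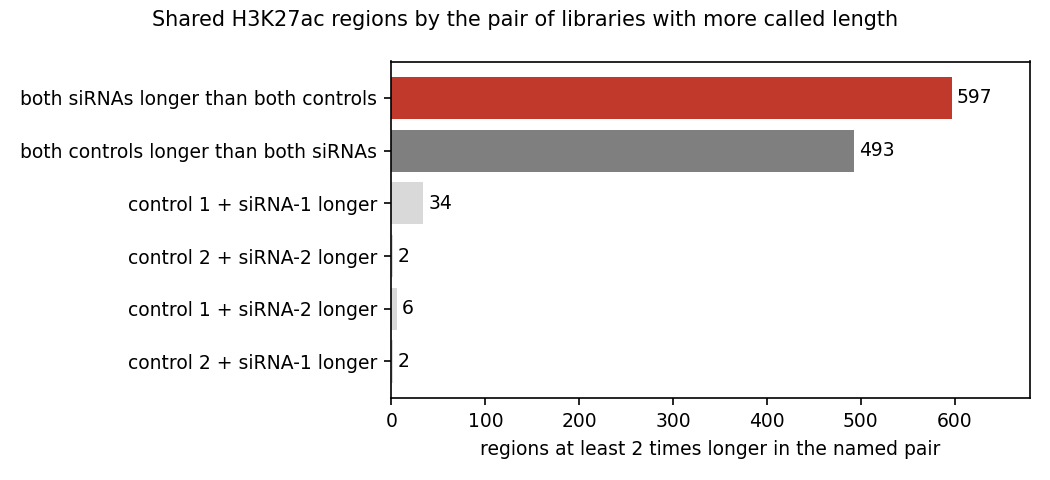
Number of shared regions (x axis) in which the named pair of libraries each had at least 2 times the called length of both remaining libraries, and 1000 bp or more. The bars for treatment pairs reach 597 and 493, and the 4 mixed pairs reach at most 34.

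More regions were doubled with either siRNA alone than with both. Relative to the longer control, 1339 shared regions were doubled with siRNA-1 and 780 with siRNA-2, so the 597 regions common to them are 44.6% of the siRNA-1 set and 76.5% of the siRNA-2 set. Both sets use the same controls. Between single libraries, siRNA-1 was at least 2 times siRNA-2 in 1269 regions and the reverse held in 617, against 295 and 74 between the controls. The count was 1149 without control 1, 961 without control 2, 725 without siRNA-1 and 1368 without siRNA-2. Leaving out a library takes away a condition of the rule, which by itself favours a higher count. These counts therefore cannot show which library the 597 rest on.

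In the controls these were short, weak calls. Median called length per region was 642 bp in control 1 and 598 bp in control 2, against 2640 bp with siRNA-1 and 2317 bp with siRNA-2. Over all shared regions the medians lay close together, at 1589 bp and 1471 bp in the controls and 1646 bp and 1492 bp with the siRNAs. The regions thus were well below the typical shared region in the controls and above it after knockdown, a difference that the rule on called length favours. Summed over the 597 regions, called length was 502 kb in control 1, 476 kb in control 2, and with siRNA-1 and siRNA-2 it was 1892 kb and 1586 kb.

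The length of the whole lists did not separate the treatments in the same way. Called length in all was 67.9 Mb in control 1, 62.1 Mb in control 2, 70.4 Mb with siRNA-1 and 61.7 Mb with siRNA-2. The siRNA-2 list was thus the shortest of the 4. The doubled regions made up 0.740% of control 1, 0.768% of control 2, 2.69% of siRNA-1 and 2.57% of siRNA-2, a difference that the rule itself sets. Sequencing depth is unknown for these lists, and its part in the called lengths was not tested.

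The shorter siRNA call exceeded the longer control call by a median of 2.66 times, from 2.001 to 13.6 times. In 230 regions the ratio was 3 or more, in 44 it was 5 or more, and in 2 it was 10 or more. The length added was between 523 and 7593 bp, with a median of 1403 bp. With mean lengths per treatment, the median ratio was 3.63 over the doubled regions and 1.01 over all shared regions. The siRNA-1 call was the longer one in 444 regions (74.4%), against 63.0% of all shared regions, and the median ratio of siRNA-1 to siRNA-2 was 1.14.

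**Figure D2:**
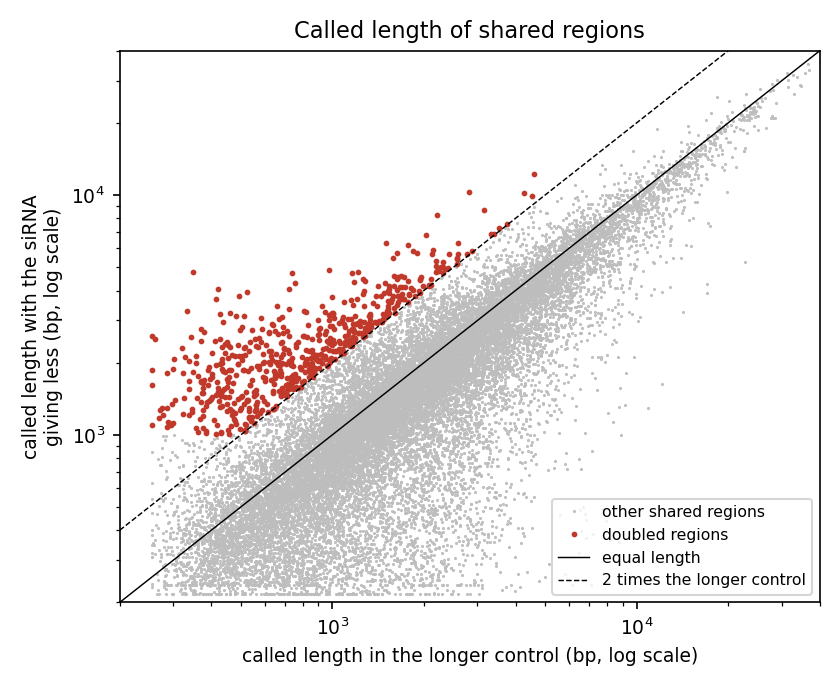
Called length per shared region on log axes, in the longer control (x axis) and with the siRNA giving less (y axis). The 597 doubled regions (red) lie on or above the dashed line at 2 times and reach 12201 bp; taking the lower siRNA and the higher control shifts all points downward.

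Doubling became rarer with the length of the control call. Of the 4860 shared regions in which the longer control call was 500 bp to under 1000 bp, 256 doubled (5.27%). Of those at 1000 bp to under 2000 bp 158 of 8072 did (1.96%), of those at 2000 bp to under 4000 bp 34 of 6171 (0.551%), and of those at 4000 bp or more 3 of 3545 (0.0846%). Below 500 bp it was 146 of 1485 (9.83%). Short calls can double with few added bases, but the minimum of 1000 bp also keeps many of them out, so this gradient partly follows from the rule.

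The largest additions lay in regions of 6664 to 19606 bp in width. The region with the most added length was in 9q31.3 (chromosome 9, 114819898 to 114838534), a band to which UGCG maps, the gene of the enzyme that starts glycosphingolipid synthesis. Genes are named here only as landmarks of bands several Mb long, and none was placed on a peak. Called length there was 4608 bp in control 1 and 4381 bp in control 2, against 18473 bp with siRNA-1 and 12201 bp with siRNA-2. The controls were thus close to each other, and each siRNA call was at least 7593 bp longer than either. In the controls the calls formed 3 and 5 separate peaks mostly near the ends of the region, and with siRNA-1 almost all of it was called, in 2 peaks. With siRNA-2 there were 7 peaks, and only 14.9% of the 6602 bases called with both siRNAs and in neither control lay outside the span of the control peaks. Most of the new bases thus lay between control peaks, although siRNA-2 left gaps that siRNA-1 did not.

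A second doubled region lay at lower coordinates of the same band (chromosome 9, 114798988 to 114809901). It was among the 5 with the strongest control calls, ranked by the lower of the 2 control −log10 q values. Its called length was 3760 bp and 2952 bp in the controls, against 10914 bp with siRNA-1 and 7600 bp with siRNA-2. With peaks within 500 bp joined its ratio of 2.02 was 1.92, under the threshold. Fold enrichment at the best summit, the peak caller's own value per peak, was 22.3 and 24.1 in the controls, 87.3 with siRNA-1 and 34.1 with siRNA-2. Such values depend on each library's depth, so they are given side by side and not compared between lists.

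In 14q24.1 (chromosome 14, 69145080 to 69157355) called length was 2804 bp and 1759 bp in the controls, against 11857 bp with siRNA-1 and 10255 bp with siRNA-2. ZFP36L1, whose product directs decay of AU-rich mRNAs, maps to this band. Every library had 3 or 4 peaks there, so the number of peaks stayed similar while the called length rose. As in 9q31.3, most of the 6769 newly called bases lay between the control peaks, with 22.4% outside.

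A region in 22q12.1 (chromosome 22, 27524497 to 27537934) had 2 peaks in each control, with 2215 bp and 2165 bp called. It was called from end to end as a single peak of 13438 bp with siRNA-1, and as 5 peaks with 8263 bp in all with siRNA-2. The 2 siRNAs also differed in 5q33.1 (chromosome 5, 149838089 to 149857694), where siRNA-1 gave an unbroken 19606 bp and siRNA-2 gave 10242 bp in 5 peaks, against 4270 bp and 3882 bp in the controls. The rule itself keeps the treatment groups apart. In both regions the siRNAs lay further from each other than the controls did.

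In 4q32.3 and 22q12.2 the 2 siRNAs gave nearly the same length. The 4q32.3 region (chromosome 4, 169443905 to 169453450) had 3156 bp and 3087 bp in the controls, against 8951 bp with siRNA-1 and 8628 bp with siRNA-2. This band holds PALLD, the gene of the actin-bundling protein palladin. The 22q12.2 region (chromosome 22, 30012822 to 30022880) had 4515 bp and 3706 bp in the controls. With either siRNA it was 1 peak, of 9921 bp with siRNA-1 and 10032 bp with siRNA-2. NF2, which encodes the tumour suppressor merlin, maps to 22q12.2.

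**Figure D3:**
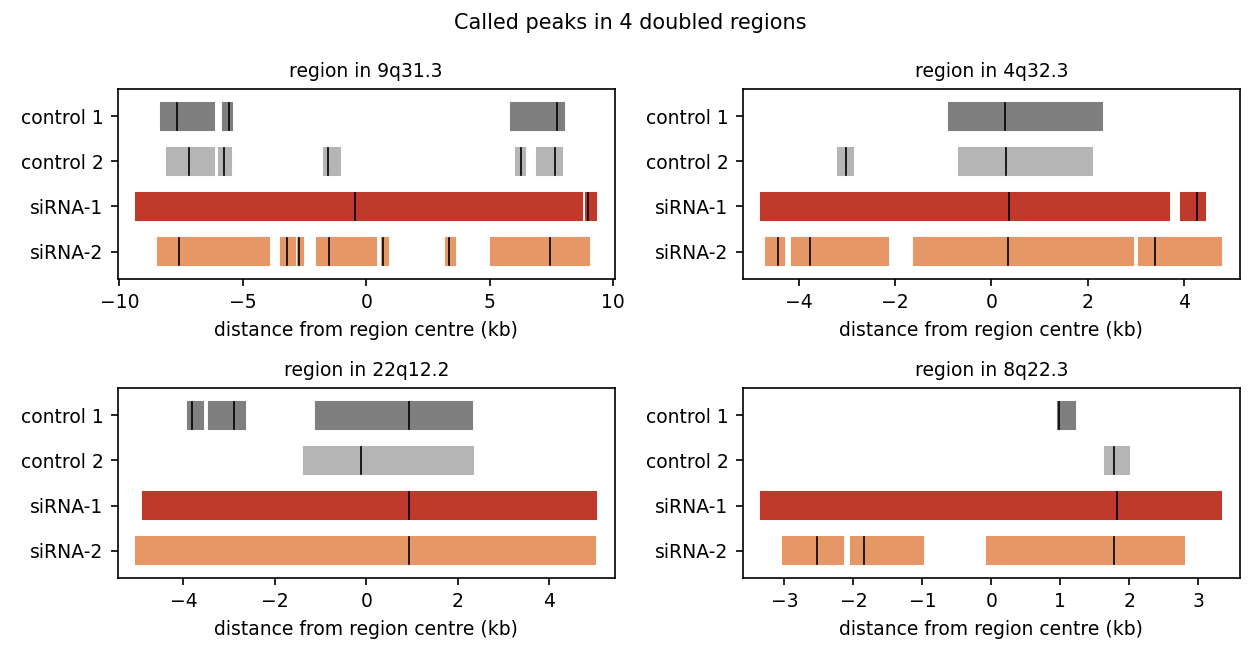
Called peaks (bars) and their summits (black ticks) in the 4 libraries for doubled regions in 9q31.3, 4q32.3, 22q12.2 and 8q22.3, by distance from the region's centre in kb. In 22q12.2 each siRNA gives 1 unbroken peak, and in 8q22.3 the control peaks are 255 bp and 349 bp long and do not overlap each other.

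The 10 regions with the most added length also included stretches in 10q26.13, 1q42.2 and 6q21. In 10q26.13 (chromosome 10, 124609045 to 124616607) called length was 1499 bp in control 1 and 270 bp in control 2, against 7563 bp and 6315 bp with the siRNAs. In 1q42.2 (chromosome 1, 231520367 to 231527357) it was 1370 bp and 2028 bp in the controls, and either siRNA gave 1 peak over nearly the whole region, of 6840 bp and 6991 bp. With peaks within 500 bp joined its ratio was 1.88 in place of 3.37, under the threshold. EGLN1, the oxygen-sensing prolyl hydroxylase that marks HIF for degradation, maps to this band. In 6q21 (chromosome 6, 106039501 to 106046549), the band of the transcriptional repressor gene PRDM1, the controls had 1775 bp and 1715 bp, and the siRNAs 6182 bp and 6604 bp. In the 1q42.2 and 6q21 regions siRNA-2 gave slightly more length than siRNA-1. When peaks were joined over the largest distance tried, 5 of these 10 regions fell under a ratio of 2: 9q31.3 to 1.83, 22q12.1 to 1.74, 22q12.2 to 1.99, 1q42.2 to 1.13 and 6q21 to 1.62.

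The 10 highest ratios came from short control calls, of 238 to 524 bp, where the shortest peak of the whole list was 255 bp in control 1 and 238 bp in control 2. The 8q22.3 region (chromosome 8, 103917463 to 103924126) led by ratio and was also among the 10 with the most added length. It had single peaks of 255 bp and 349 bp in the controls, 6664 bp with siRNA-1 and 4756 bp with siRNA-2, a ratio of 13.6. Its control peaks did not overlap, and the knockdown peaks bridged them into 1 region. KLF10, a zinc finger gene induced by TGF-beta, maps to 8q22.3. In 8p21.2 (chromosome 8, 23654088 to 23657403), where the gene of the secreted glycoprotein stanniocalcin, STC1, maps, the controls had 255 bp and 238 bp, and the siRNAs 2580 bp and 3316 bp.

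The other 8 regions with the highest ratios, from 7.47 to 9.91, had between 253 and 524 bp in the controls. They lay in 2q13 (chromosome 2, from 112459965), 16q24.1 (chromosome 16, from 84870186), 14q22.1 (chromosome 14, from 51999316) and 6q23.2 (chromosome 6, from 134740960), the last being the band of the stress-induced kinase gene SGK1. Others lay in 14q31.3 (chromosome 14, from 89448753) and 19p13.3 (chromosome 19, from 2488967), the latter the band of the stress-response gene GADD45B. The last pair lay in 10q22.3 (chromosome 10, from 79151154), where the potassium channel gene KCNMA1 maps, and in 5q14.3 (chromosome 5, from 86685493), where RASA1 maps, a gene for a RAS GTPase-activating protein. In 2q13 the controls had 333 bp and 273 bp, against 4841 bp with siRNA-1 and 3300 bp with siRNA-2. Its ratio of 9.91 fell below the threshold, to 1.82, when peaks within 500 bp were joined. In 10q22.3 they had 371 bp and 256 bp, against 2775 bp and 3041 bp. All of these 8 regions had a single peak in each control. With only peaks at a −log10 q of 10 or more, none of the 10 regions with the highest ratios kept a call in every library, so the rule could not be applied to them there.

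The 5 doubled regions with the strongest control calls had ratios close to the threshold, from 2.02 to 2.16. In 11q13.4 (chromosome 11, 71668899 to 71676287) the controls had 1786 bp and 1618 bp, at fold enrichments of 20.4 and 24.4. With siRNA-1 the call was 7389 bp and with siRNA-2 3862 bp, a ratio of 2.16. In 20q13.2 (chromosome 20, 52386666 to 52393692) each library had 1 peak. It was 2966 bp and 3409 bp long in the controls and 6876 bp and 6978 bp long with the siRNAs, a ratio of 2.02. ZNF217, a zinc finger gene often amplified in carcinomas, maps to this band. Regions in 14q24.3 (chromosome 14, from 77767554) and 15q21.2 (chromosome 15, from 52543085) had ratios of 2.11 each. With only peaks at a −log10 q of 5 or more the ratio was 1.74 in 11q13.4 and 1.48 in 14q24.3. In the second 9q31.3 region above, also among these 5, it was 1.96. These 3 were thus no longer doubled.

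At the threshold itself, the doubled regions with the lowest ratios were on chromosome 6 (from 26349871, ratio 2.001), chromosome X (from 106155323, 2.002) and chromosome 11 (from 86428143, 2.004). The first had 1318 bp and 1603 bp in the controls and 3208 bp and 3482 bp with the siRNAs. Just short of it were regions on chromosome 11 (from 120201531, 1.999), chromosome 1 (from 96827082, 1.996) and chromosome 9 (from 107814251, 1.993). Of these, the one on chromosome 11 had 849 bp and 1230 bp in the controls and 3496 bp and 2459 bp with the siRNAs, so regions on either side of the line look alike. A further 62 shared regions met the ratio but not the minimum of 1000 bp.

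Longer calls came with fewer peaks per region with siRNA-1 and slightly more with siRNA-2. How much length came from wider peaks and how much from added ones was not measured. The mean number of peaks per region was 1.40 in each control, 1.14 with siRNA-1 and 1.54 with siRNA-2. In 193 regions (32.3%) each of the 4 libraries had a single peak, which was simply longer with the siRNAs. In 132 regions (22.1%) a control had several peaks and each siRNA a single one, and in 61 of these both controls had several. The reverse, a single peak in each control and several with at least 1 siRNA, was also found in 132 regions. In the remaining 140 (23.45%) at least 1 control and at least 1 siRNA had several peaks. The siRNAs differed here: a single peak covered the call in 521 regions for siRNA-1 and in 373 for siRNA-2.

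The newly called bases, called with both siRNAs and in neither control, amounted to 872 kb, with a median of 1262 bp per region. In 312 regions the control calls left no gap between them, so every new base lay outside their span by construction, and the median share outside over all 597 regions is 100% for that reason. In the 285 regions whose control calls did leave gaps, new bases could fall in the gaps or on the flanks. There the median share outside the span was 76.8%, with quartiles of 58.2% and 86.6%, and 56 regions had under 50% outside, among them 9q31.3, 14q24.1 and 22q12.1. Gaps inside these spans came to 176 kb, of which 78.3% was newly called. Both siRNAs extended the call by 200 bp or more on both sides of the control span in 396 regions, on 1 side in 184 and on neither in 17. On average 97.5% of the called bases of either control were also called with both siRNAs, and in 483 regions all of them were. The rule favours this, because both siRNA calls have to be the longer ones in the same merged region. For the regions of the opposite rule, 97.2% of siRNA-1 bases and 97.4% of siRNA-2 bases were also called in both controls.

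The rule does not use the side on which length is added, and both siRNAs mostly extended the call farther on the same side. The side on which the call was extended farther was the same with both siRNAs in 489 of 595 regions with a longer side, or 82.2% (Wilson 95% interval 78.9 to 85.1%, which covers counting error over regions only). Both extensions are measured from the same control peaks, which can itself favour the same side. The halved regions, with the controls as the longer pair, gave a similar share of 84.8%. Of the bases newly called with siRNA-2, 91.0% were also new with siRNA-1, and 69.2% of those new with siRNA-1 were also new with siRNA-2. The rule favours such overlap, because both siRNA calls have to be long within the same merged region. No expected overlap was computed, so these shares cannot show agreement between the siRNAs. In the halved regions the corresponding shares between the controls were 91.4% and 82.3%. New bases came to 1260 kb for siRNA-1 and to 959 kb for siRNA-2.

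**Figure D4:**
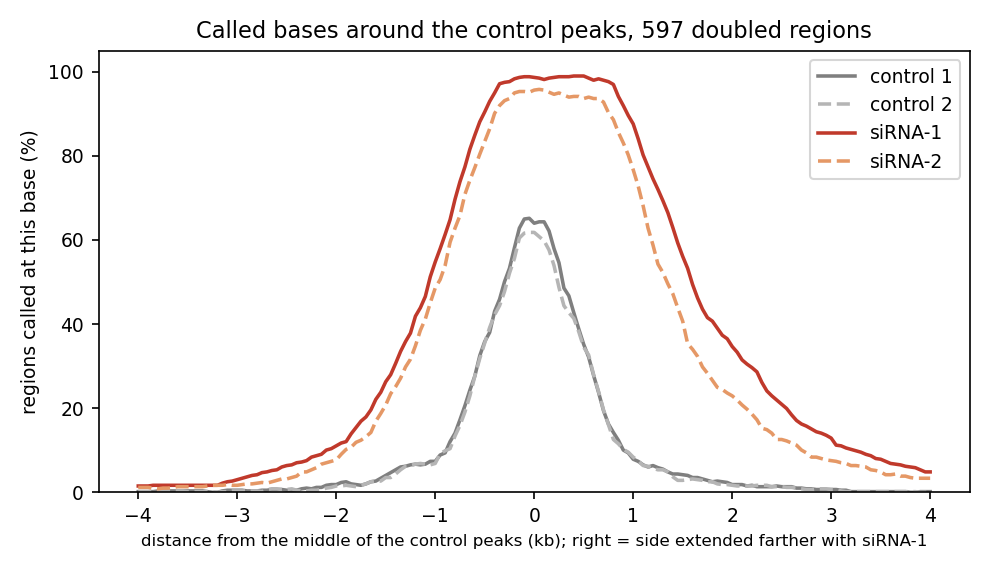
Share of the 597 doubled regions called (y axis, %) at each distance from the middle of the control peaks (x axis, kb), per library, with each region turned so that siRNA-1 extends farther to the right. At 1000 bp to the right 87.6% of regions were called with siRNA-1, 76.7% with siRNA-2, against 7.87% and 8.38% in the controls; at 1000 bp to the left it was 54.8% and 48.6%, against 7.37% and 6.87%.

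The profile around the middle of the control peaks shows the same asymmetry with siRNA-2, whose calls were not used to turn the regions. Both siRNA profiles are measured from the same control peaks, however, which can itself favour the same side. At 2000 bp on the right 34.7% of regions were called with siRNA-1 and 22.9% with siRNA-2, and at 2000 bp on the left 11.1% and 7.71%. The controls were below 2% at both distances, and at the middle itself, which can fall between control peaks, they were called in 64.0% and 61.8% of regions.

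The strongest point mostly stayed inside the bases that a control had already called. The best summit with siRNA-1 fell on such a base in 519 regions (86.9%) and that with siRNA-2 in 523 (87.6%). In 38 regions (6.37%) neither did. The median distance between best summits was 78 bp between the siRNAs, 132 bp between the controls, and 114 to 128 bp between a control and an siRNA. In other shared regions of 1000 bp or more it was 74.5 bp between the siRNAs and 69 bp between the controls. The summits of the controls were thus farther apart in the doubled regions than elsewhere, and those of the siRNAs about as far apart. In 50 of the doubled regions (8.38%) no base was called in both controls, as in 8q22.3, against 0.526% of all shared regions.

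Within its own list, each control ranked the doubled regions low and each siRNA ranked them high. By −log10 q, the best peak of the median region was at percentile 36.4 of the peaks in control 1 and 34.8 in control 2. With siRNA-1 it was at percentile 81.2 and with siRNA-2 at 78.8. All shared regions sat at percentiles 71.2 to 72.5 in the 4 lists. Median fold enrichment was 5.04 and 5.01 in the controls, 17.2 with siRNA-1 and 14.8 with siRNA-2. Over all shared regions it was 11.7 and 10.9 in the controls, 12.3 with siRNA-1 and 11.8 with siRNA-2. A −log10 q of 10 or more was reached by 202 of the regions (33.8%) in control 1 and 176 (29.5%) in control 2. With siRNA-1 it was reached by 589 (98.7%) and with siRNA-2 by 579 (97.0%). Among all shared regions the shares were 85.4% and 80.8% in the controls, 84.9% with siRNA-1 and 82.5% with siRNA-2. Length and peak height come from the same signal, so this describes the members again and is no separate evidence.

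Around the doubled regions, other regions differed from the controls in the same direction. Within 50 kb, measured between midpoints, 264 of the 597 (44.2%, Wilson 95% interval 40.3 to 48.2%) had at least 1 gained region, one called with both siRNAs and in neither control. Among all 15075 shared regions of 1000 bp or more with each siRNA the share was 24.0%, and among the 493 halved regions 9.13%. Lost regions, called in both controls and with neither siRNA, were near 55 doubled regions (9.21%, 7.15 to 11.8%), against 23.2% and 53.5%. The overall density of neighbours was no higher: 74.4% of doubled regions had another shared region within 50 kb, against 80.9%. Without siRNA-1 the share with a gained neighbour was 69.0% against 48.0% of shared regions of that length, and without siRNA-2 74.1% against 53.3%; more regions count as gained when 1 siRNA suffices. The share with a lost neighbour was 21.2% without control 1, 22.8% without control 2, 18.2% without siRNA-1 and 15.6% without siRNA-2, against 40.1%, 42.4%, 34.2% and 30.5% of shared regions of that length.

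The pattern was steeper at shorter distance. Within 10 kb 20.4% of doubled regions had a gained neighbour and 1.01% a lost one, against 7.37% and 6.91% of shared regions of 1000 bp or more. Within 200 kb the shares were 71.4% and 35.8%, against 54.9% and 52.5%. Doubled regions were also near each other: 93 of them (15.6%) had another within 50 kb, against 5.27% of shared regions of that length, and 2 of them (0.335%) had a halved region that close. These are the same libraries and the same contrast as the rule, neighbouring regions are not independent, and no test was made.

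**Figure D5:**
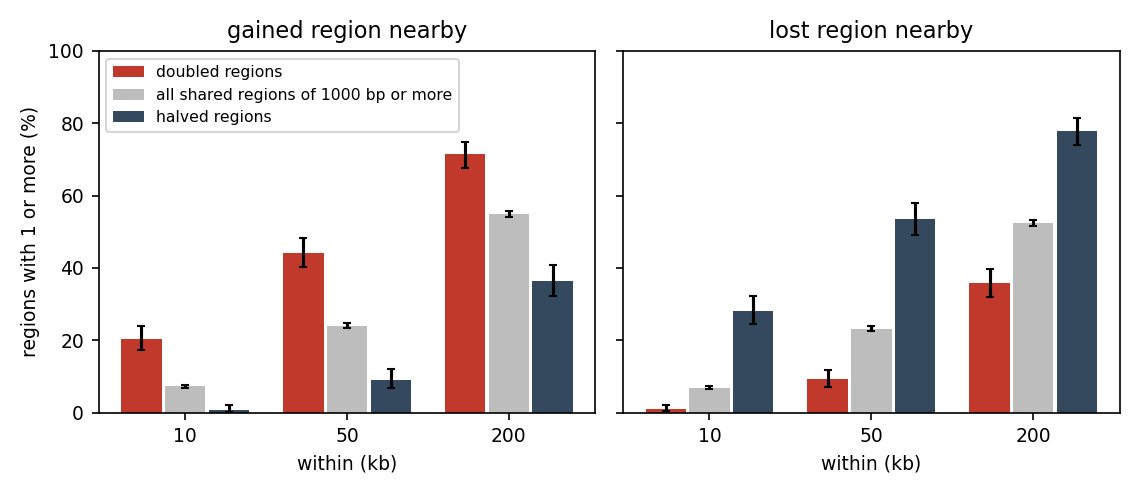
Share of regions (y axis, %, with Wilson 95% intervals over regions) that have 1 or more gained regions (left) or lost regions (right) within 10, 50 or 200 kb. At 50 kb 44.2% of doubled regions had a gained neighbour and 9.21% a lost one, against 9.13% and 53.5% of halved regions.

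Most doubled regions were alone in their window of 1 Mb, by midpoint: 361 windows held 1, 82 held 2, 17 held 3, 4 held 4 and 1 held 5. The window with 5 was on chromosome 8 (67000001 to 68000000), where the 5 regions lay within 82.6 kb. They began at 67366920, 67373945, 67382014, 67423061 and 67443372. Over the 5 together 6732 bp were called in control 1 and 6102 bp in control 2, against 20570 bp with siRNA-1 and 18583 bp with siRNA-2. The lowest ratio was 2.07 and the highest 3.16. The longest of them (67443372 to 67449513) had 3 peaks in each control, over 2144 bp and 2057 bp, and 1 peak with either siRNA, of 6120 bp and 5892 bp. The window held 17 shared regions in all, and beside them 5 gained and 0 lost regions. Over all chromosomes examined there were 4103 gained and 4250 lost regions. The windows described here were picked by their number of doubled regions.

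Of the 4 windows with 4 doubled regions, the first 2 in chromosome order were on chromosome 6. In the window from 4000001, which held 4 gained and 0 lost regions, the doubled regions spread over 278 kb and had 3130 bp and 3723 bp in the controls, against 10657 bp and 8310 bp with the siRNAs. The strongest of them in the controls (4400803 to 4403821) was 1 peak in each library, of 1340 bp and 1458 bp in the controls and 2983 bp and 2946 bp with the siRNAs. In the window from 11000001 the doubled regions spread over 763 kb, with 4007 bp and 4239 bp in the controls and 14189 bp and 12573 bp with the siRNAs. That window had 32 shared regions, and beside them 6 gained and 6 lost ones, so both directions occurred in it. With peaks within 500 bp joined, the regions from 11006458 and 11363877 there had ratios of 1.44 and 1.05, under the threshold. The remaining 2 windows were on chromosome 8 (from 23000001), which includes the 8p21.2 region above, and chromosome 19 (from 43000001), with 6 and 8 gained regions and 1 and 2 lost ones.

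Doubled regions were found on all 23 chromosomes examined. As a share of shared regions they ranged from 1.60% on chromosome 19 (16 of 999) to 3.96% on chromosome 13 (19 of 480), and chromosome 8 had 3.47% (38 of 1096), against 2.47% overall. In 20q13.13 (chromosome 20, 46400001 to 49800000), the band of CEBPB, the target of the siRNAs, 3 of 74 shared regions doubled and 2 halved. In 19p13.12 (chromosome 19, 14000001 to 16300000), the band of NOTCH3, a Notch receptor gene, 0 of 41 doubled and 1 halved.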

How the data were processed

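Peaks were called per library, not on pooled samples. The submitters' processing notes name the build hg19 and the tools MACS2 2.2.7.1, BWA 0.7.17 and SAMtools 1.7.0; the sources used here give neither options nor whether the 4 input libraries served as a control. The deposited lists give each peak's start, end and summit, a fold enrichment (a linear ratio), −log10 p and −log10 q, and a score that is 10 times the −log10 q. They carry no read counts, so depth is unknown and absence of a peak is absence of a call. Per the labels' protocols, single-end reads of 101 bases were sequenced.

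Called length is the summed length of a library's peaks in a merged region. The best peak is the one with the highest −log10 q. Regions named are the 10 with the most added length, the 10 with the highest ratio, the 5 strongest in the controls, 3 on either side of the ratio of 2, and those of the 3 windows of 1 Mb with the most members. Members, lists and rules were chosen with earlier results of these data known. The reference tables at hand are of another build (GRCh38), so genes, promoters and sequences were not placed on peaks, and the pathway and cell type gene lists were not used. Bands were assigned from a hand-written table of band limits. Merging and counting were tested on simulated lists. Analyses used Python 3.11.15, NumPy 2.4.6 and SciPy 1.17.1.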

Additional observations from a re-analysis of the deposited data

How the results depend on the processing

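Depth is unknown for these lists, and the ratio rests on 1 library per siRNA, so no region carries a test. The 597 doubled regions numbered 226 with only peaks at a −log10 q of 10 or more, 1310 at a ratio of 1.5, 230 at a ratio of 3, 348 with a minimum of 2000 bp and 1134 with mean lengths. Without each library in turn, and so with fewer conditions to meet, they ranged from 725 to 1368. The largest mixed count of 34 was 16 with equal called length, 136 at a ratio of 1.5, 4 at a ratio of 3, 69 with a minimum of 500 bp, 5 with 2000 bp and 251 with mean lengths. The median share of new bases outside the control span, 100%, was 89.9% with peaks joined across wider gaps (the largest joining distance tried) and 91.6% with a minimum of 2000 bp; the cause was not tested. In each of these settings with 4 libraries, doubled regions outnumbered the largest mixed count. The 493 halved regions numbered 163 at a −log10 q of 10 or more and 251 with equal called length.

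The results on gained and lost neighbours and on the side of the extension were added after the values were seen. So were the following alternatives to them. The share with a gained neighbour was 36.9% with peaks joined within 500 bp, against 19.1% of shared regions of 1000 bp or more. It was 30.1% against 16.1% at a −log10 q of 10 or more, and 34.9% against 16.1% with equal called length. Without each library it ranged from 46.3% (against 28.55%) without control 2 to 74.1% (against 53.3%) without siRNA-2. The share with a lost neighbour was 5.65% at a −log10 q of 5 and 6.19% at 10, against 18.99% and 14.6%, and ranged from 15.6 to 22.8% without each library. The share extended to the same side was 86.2% at either threshold, and 85.1 to 85.7% without a control.

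The 43 regions named gave 382 of 430 possible ratios under the alternatives; the other 48 had lost a library's call, all with weak peaks removed. None of the 382 was under 1, and 333 were 2 or more. For the doubled regions, leaving out a library or pairing libraries by number cannot bring the ratio under 2. Only joining peaks, the −log10 q thresholds and equal called length could do so. Of the 40 doubled regions named, 5 fell under 2 with peaks joined within 500 bp and 18 at the largest joining distance (19p13.3 went from 7.54 to 1.26). Among peaks with a −log10 q of at least 5, 3 did and 11 gave no value, with at least 10, 2 did and 21 gave none, and with equal called length 14 gave none. Setting each siRNA against the control of the same number (a replicate block) gave 751 regions. The numbers mark no shared culture in the labels. The deviations of same-numbered libraries in log2 called length had a correlation of 0.064 over shared regions. This block could not reverse a doubled region or lower the count, because the rule already sets each siRNA against both controls.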
